A study of Homo sapiens with 8 samples.

Results

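This account describes 108 protein-coding genes whose mean level after transforming growth factor beta 1 (TGFB1) was at most 40% of control in human skin fibroblasts. They were chosen by a rule on the deposited normalized values: a mean of at least 100 normalized reads in the 2 control libraries and a TGFB1 mean of at most 0.4 times that, outside the Y chromosome and the mitochondrial genome. The table holds 24598 genes, of which 15267 were protein-coding outside those chromosomes and 11072 of these had a control mean of at least 100, so the 108 are 0.975% of the genes that could have met the ratio. Since the rule used the control and TGFB1 libraries, every comparison of the members that involves those libraries is given as a description, with no test. The 4 libraries with celastrol were not used by the rule.

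RNA was sequenced from CCD-1077Sk, 1 established fibroblast line from normal human skin, beyond passage 8, collected 6 h after treatment. The study addressed how celastrol, a triterpenoid from the thunder god vine Tripterygium wilfordii, alters the gene expression that TGFB1 sets in skin fibroblasts. There were 4 groups of 2 libraries. Control cells received the carriers BSA, citric acid and DMSO. The TGFB1 group received TGFB1 with DMSO, the celastrol group received celastrol at 500 nM with BSA and citric acid, and the last group received TGFB1 together with celastrol at 500 nM. The dose of TGFB1 is not stated in these sources. Replicate 2 of the celastrol group carries the number 3 in another of its labels. No label states if the 2 libraries of a group are separate cultures. The p-values therefore rest on a spread that may be technical.

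TGFB1 is a cytokine that binds a pair of receptor kinases, which phosphorylate SMAD2 and SMAD3. With SMAD4 these enter the nucleus, where they raise some genes and, with partner repressors, lower others. In fibroblasts TGFB1 is best known for raising collagen and contractile genes. Known examples of genes that TGFB can lower include ID genes in epithelial cells and the receptor kinase gene KIT in blood progenitors. Bone morphogenetic proteins (BMPs) signal through SMAD1 and SMAD5 instead and share SMAD4, so members of that pathway among the 108 are set out separately below.

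Each library held 20716711 to 42518359 estimated reads. A normalized read is an estimated read divided by the library's size factor. It is not corrected for gene length, so levels are compared between libraries for 1 gene and not between genes. A floor of 3 reads corresponds to 1.80 to 4.24 normalized reads, and member genes lay between 11.1 and 23042 normalized reads over the 8 libraries. All 108 members passed the filter on low values, which asked for 10 normalized reads in 2 libraries. All 10 fibroblast markers checked were listed, with summed levels of 406290 to 719200. Of 5 mast cell markers, 3 (TPSAB1, TPSB2 and MS4A2) were not listed and the other 2 (CPA3 and HDC) summed to 14.4 to 27.5 in control, 1.41 to 8.60 with TGFB1, 37.9 to 63.0 with celastrol and 46.97 to 47.3 with both. Of 6 melanocyte markers, TYR, DCT and SOX10 were not listed. The other 3 were MITF, itself a member, PMEL and MLANA. They summed to 1034 to 1074 in control, 222 to 236 with TGFB1, 1312 to 1365 with celastrol and 1270.0 to 1312 with both. MITF alone had 1025.5 and 1063 in control and 222 and 211 with TGFB1, so this sum fell with TGFB1 by the rule. PMEL had 8.75 and 11.4 in control and 14.1 and 9.83 with TGFB1. Endothelial markers, with CDH5 not listed, summed to 52.7 to 98.9 without celastrol and to 354 to 465 with it. The immune markers PTPRC, CD14 and LYZ summed to 11.3 to 22.2 without celastrol and to 63.0 to 92.4 with it. Keratinocyte markers, with KRT5, KRT14 and KRT1 not listed, summed to 880 to 1065, of which KRT10 held 873 to 1059 and CDH1 0 to 13.9. The 5 smooth muscle and pericyte markers summed to 5434 to 9022. Of this CSPG4 held 4602 to 8154, and each of the others at most 795 (CNN1). The part of these shifts in the levels below was not tested. In bulk RNA, fewer cells of a type and less RNA per cell cannot be told apart.

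Among the members, the TGFB1 level ranged from 5.18% of control (KIT) to 39.9% (SHOX2), with a median of 31.1%. It was at most 10% for 1 gene, at most 20% for 21 genes and at most 30% for 50 genes. Control means ran from 103 (ANO3) to 22515 (CEMIP) normalized reads, with a median of 469.6. With celastrol alone the same genes stood at a median of 127% of control, and with TGFB1 plus celastrol at 121%, against 92.9% and 92.7% over the 11072 genes. Just inside the ratio were CITED2 (39.6%), SEMA6D (39.7%) and SHOX2. Just outside it were LHX9 (40.2%), HS6ST1 (40.4%) and SOX6 (40.5%). At the limit on the level, ANO3, AC073111.3 (104) and ADAMTS9 (115) lay just inside, and ZNF30 (99.3), AMIGO1 (93.7) and SKIDA1 (93.3) just outside.

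**Figure D1:**
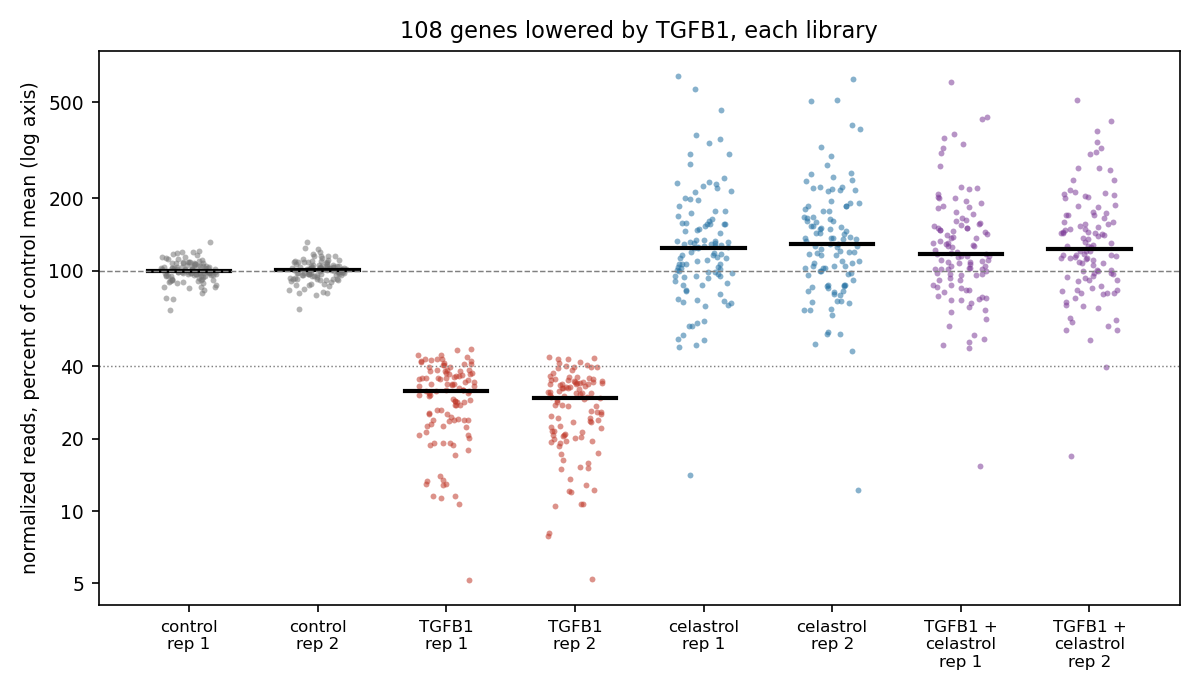
Level of each of the 108 genes (1 point) in each of the 8 libraries, as percent of that gene's control mean, on a log axis, with thick bars at the library's median. The dashed line is 100% and the dotted line 40%. The TGFB1 libraries lie low because the rule chose the genes there, while the celastrol libraries with and without TGFB1 have similar spreads around medians above 100%.

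The gene with the lowest TGFB1 level was KIT, the receptor tyrosine kinase for stem cell factor, which melanocytes, mast cells and blood progenitors need (chromosome 4, 54657918 to 54740715 on the + strand in hg38). KIT had 499 and 541 normalized reads in the control libraries and 26.8 and 27.0 with TGFB1. It had 818 and 993 with celastrol, and 765 and 900.2 with TGFB1 plus celastrol. The celastrol libraries therefore lay above control, and those with and without TGFB1 overlapped. The level with celastrol was 174% of control, and with TGFB1 plus celastrol 160%. MLANA, a melanosome gene, was listed at 0 in both control libraries and at 0 and 1.23 with TGFB1, and had 124 and 84.8 normalized reads with celastrol and 108.0 and 85.8 with both. HDC, the histamine-making enzyme of mast cells, was listed at 0 in both control libraries and at 0 and 1.23 with TGFB1, and had 16.2 and 30.3 with celastrol and 25.2 and 26.4 with both. MLANA and HDC were thus higher with celastrol, as KIT was, but stood at 0 in control, where KIT did not. PMEL and CPA3, of the same lists, overlapped control with celastrol. PMEL had 8.75 and 11.4 in control and 9.28 and 20.6 with celastrol, and CPA3 27.5 and 14.4, and 21.6 and 32.7. TYR, DCT, SOX10 and the tryptase genes were not listed in any library. The part of such markers in the KIT level was not tested.

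Promoter sequences are shown for 4 members because each holds a motif that bears on the pathways named here: KIT as the gene with the lowest level, SMAD6 as the sole member with the palindromic SMAD element GTCTAGAC among the windows searched, BMP4 as the BMP ligand, and IFIT1 for its paired interferon-stimulated elements. They are the 250 bases before the RefSeq start site in build GRCh38.p14, written along the gene's strand, with the motif in capitals. KIT is shown at chr4:54657707-54657956 (+), SMAD6 at chr15:66701986-66702235 (+), BMP4 at chr14:53955051-53955300 (-, 1 of 3 listed start sites) and IFIT1 at chr10:89392373-89392622 (+). Capitals mark the SMAD box CAGAC in KIT, its reverse complement in BMP4, the palindrome in SMAD6 and both interferon-stimulated elements in IFIT1.
KIT: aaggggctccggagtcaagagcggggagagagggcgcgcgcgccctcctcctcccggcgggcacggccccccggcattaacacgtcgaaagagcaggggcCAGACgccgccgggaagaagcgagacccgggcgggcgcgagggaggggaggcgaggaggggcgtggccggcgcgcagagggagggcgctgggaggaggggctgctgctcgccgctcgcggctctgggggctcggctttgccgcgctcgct
SMAD6: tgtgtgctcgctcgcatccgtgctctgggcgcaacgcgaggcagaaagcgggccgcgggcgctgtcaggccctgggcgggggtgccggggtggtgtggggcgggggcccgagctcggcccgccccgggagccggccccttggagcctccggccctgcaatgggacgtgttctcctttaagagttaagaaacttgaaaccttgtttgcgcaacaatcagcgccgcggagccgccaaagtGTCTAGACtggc
BMP4: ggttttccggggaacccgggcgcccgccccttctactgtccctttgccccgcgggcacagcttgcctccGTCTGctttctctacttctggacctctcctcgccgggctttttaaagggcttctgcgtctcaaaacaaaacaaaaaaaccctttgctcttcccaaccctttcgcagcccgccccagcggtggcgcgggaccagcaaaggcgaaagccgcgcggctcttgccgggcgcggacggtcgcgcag
IFIT1: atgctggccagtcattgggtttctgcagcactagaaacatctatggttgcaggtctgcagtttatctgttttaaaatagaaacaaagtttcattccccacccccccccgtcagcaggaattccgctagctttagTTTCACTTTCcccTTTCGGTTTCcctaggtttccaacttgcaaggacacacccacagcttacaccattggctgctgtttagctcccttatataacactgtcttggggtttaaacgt
The first base of the motif lies 150 bases before the start site in KIT, 12 in SMAD6 and 181 in BMP4, and 116 and 103 bases before it in IFIT1. A match describes the sequence and is not evidence of binding. The SMAD box is common: it stood in 48.1% of member promoter windows and in 45.3% of all, as set out below.

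The other 8 receptors among the members had TGFB1 levels of 20.3% to 39.5% of control. GPRC5A, an orphan G protein-coupled receptor induced by retinoic acid, had 3722 and 3106 normalized reads in control, 1470 and 1153 with TGFB1, 6767 and 6357 with celastrol alone, and 6822 and 5806 with both. Its celastrol libraries lay above both control libraries, at 192% of control, as did those with TGFB1 plus celastrol, at 185%. CHRM2, the M2 muscarinic acetylcholine receptor, had 3473 and 3354 in control and 1518 and 1180 with TGFB1. With celastrol it had 3252 and 3482, and with both 3258 and 3671, so that these overlapped control. ACKR4, a scavenging receptor for the chemokines CCL19 and CCL21, was the sole receptor gene whose celastrol libraries both lay below control, at 63.6%. Its libraries read 645 and 709 in control, 223 and 280.2 with TGFB1, 364 and 497 with celastrol alone, and 366 and 430.3 with both. APCDD1, a membrane inhibitor of Wnt signalling, stood at 33.5% of control with TGFB1 and at 107% with celastrol. MRGPRF stood at 32.6% and 112%, the prostaglandin F receptor PTGFR at 35.2% and 126%, the lysophosphatidic acid receptor LPAR6 at 37.9% and 88.2%, and the chemerin receptor GPR1 at 20.3% and 185%.

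Of 5 members in BMP and TGFB family signalling, SMAD6 encodes an inhibitory SMAD that blocks BMP receptors and is itself a BMP target. SMAD6 had 1000.5 and 928 normalized reads in control, 181 and 168 with TGFB1, 729.7 and 665 with celastrol alone, and 782 and 770.4 with both. With celastrol it lay below control, at 72.3%, and with both it lay above celastrol alone. ATOH8, a basic helix-loop-helix factor and BMP target, had 1022 and 739.6 in control, 209 and 113 with TGFB1, 458 and 406 with celastrol alone, and 431 and 349.96 with both. It was 1 of 3 members at or below 50% of control with celastrol alone (49.0%). BMP4 encodes a BMP ligand. It had 364 and 354 normalized reads in control, 67.8 and 75.0 with TGFB1, 1665 and 1835 with celastrol alone, and 1534 and 1505 with both. The celastrol libraries stood far above control, at 4.87 times its mean, and those with TGFB1 plus celastrol lay just below celastrol alone. FST encodes follistatin, which binds activins and some BMPs. It had 2874 and 3021 in control, 1056 and 1030 with TGFB1, 4961 and 4917 with celastrol alone, and 4412 and 4595 with both. TGFBR3 encodes betaglycan, the co-receptor that presents TGFB ligands, and stood at 24.6% of control with TGFB1, 163% with celastrol and 164% with both. Ligands, inhibitors and targets of this group thus had TGFB1 levels of 18.1% to 35.4% of control. With celastrol 3 lay above control and the 2 BMP targets SMAD6 and ATOH8 lay below it, beside 28.8% and 50% of the 11072 genes.

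Among secreted ligands, TGFB3, an isoform of TGFB1, stood at 28.5% of control with TGFB1. It had 145 and 110.97 normalized reads in control, 42.4 and 30.7 with TGFB1, 142 and 195 with celastrol alone, and 182 and 144 with both, so the last groups overlapped control. STC2, a secreted glycoprotein induced by cell stress, had 4701 and 4795 in control and 1544 and 1922 with TGFB1. It had 8404 and 8817 with celastrol and 8180.5 and 8057 with both, all above control.

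The 4 members that act on the extracellular matrix included the genes with the highest control levels. CEMIP, which binds hyaluronan and drives its breakdown, had 21988 and 23042 normalized reads in control and 7178 and 7062 with TGFB1. It had 16511 and 19528 with celastrol and 16424 and 15698 with both. With celastrol CEMIP lay below control (80.03%), and below celastrol alone when TGFB1 was present. ADAMTS1, a secreted protease that cleaves versican and aggrecan, had 12675 and 11572 in control and 1398 and 1471 with TGFB1. It had 15842 and 16324 with celastrol and 15828 and 18076 with both, above control and overlapping each other. ADAMTS5, an aggrecan-cleaving protease that neighbours ADAMTS1 on chromosome 21, stood at 31.0% of control with TGFB1 and 212% with celastrol. ADAMTS9 had 124 and 107 normalized reads in control, 36.7 and 35.6 with TGFB1, 424 and 446 with celastrol alone, and 386 and 352 with both. Its celastrol level was 3.77 times control.

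**Figure D2:**
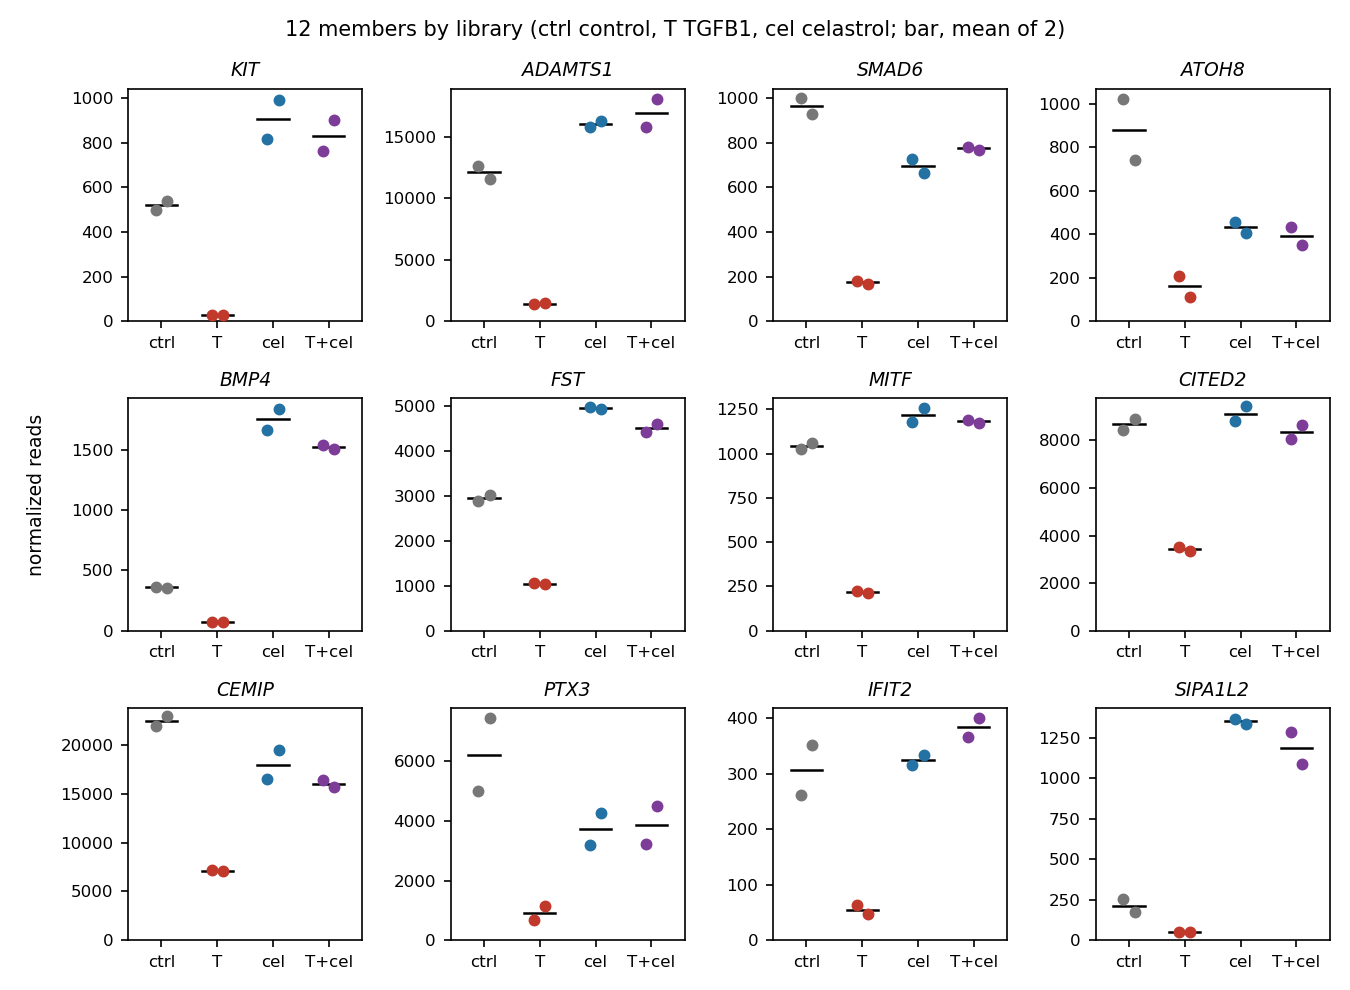
Normalized reads in each library for 12 named genes (linear axes from 0, 1 point per library, bar at the mean of 2), in control, TGFB1, celastrol and TGFB1 plus celastrol. KIT, ADAMTS1, BMP4, FST, MITF and SIPA1L2 lie above control with celastrol. SMAD6, ATOH8, CEMIP and PTX3 lie below it, and CITED2 and IFIT2 overlap it. In each panel the last groups lie close together.

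Signalling enzymes and regulators of small GTPases made up 11 members. ARHGAP28, a GTPase-activating protein (chromosome 18, 6729716 to 6915716), had 538 and 513 normalized reads in control and 59.3 and 55.3 with TGFB1, the second lowest ratio at 10.9%. It had 824 and 843 with celastrol and 848 and 832 with both, which overlapped and lay above control. SIPA1L2, a relative of GTPase-activating proteins for Rap, reached the highest celastrol level of all members. It had 254 and 171 in control, 50.8 and 50.4 with TGFB1, 1368 and 1333 with celastrol alone, and 1286 and 1091 with both, so that celastrol alone gave 6.36 times control. SOCS2, a suppressor of cytokine signalling, had 1005.5 and 984 in control, 127 and 206 with TGFB1, 924 and 794 with celastrol alone, and 869 and 861 with both. GAB1, a docking protein for receptor kinases, stood at 38.9% of control with TGFB1 and 107% with celastrol. RIPOR2 stood at 22.2% and 127%, CNKSR3 at 19.98% and 127%, the death-associated kinase DAPK1 at 35.9% and 233%, the p38 activator MAP2K6 at 25.9% and 131%, and the lipid kinase PIK3C2B at 25.4% and 110%. PTPRQ and INKA2, the latter an inhibitor of PAK4, stood below control with celastrol in both libraries, at 78.7% and 90.7%.

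Transcription factors and chromatin regulators were the largest group, with 19 members. MITF, the master regulator of melanocytes, had 1025 and 1063 normalized reads in control, 222 and 211 with TGFB1, 1179 and 1260 with celastrol alone, and 1190 and 1174 with both. CITED2, a CBP and p300 binding protein that also promotes SMAD and restrains hypoxia signalling, had 8437 and 8904 in control and 3521 and 3345 with TGFB1. It had 8795 and 9455 with celastrol, overlapping control, and 8057 and 8626 with both. CSRNP3 had the lowest TGFB1 level of the group (12.52%), with 176 and 136 in control, 26.8 and 12.3 with TGFB1, 206 and 164 with celastrol alone, and 212 and 130 with both. AHRR, which represses the aryl hydrocarbon receptor, had 3721 and 3785 in control, 1454 and 1489 with TGFB1, 2767 and 2768 with celastrol alone, and 2512 and 2764 with both. With celastrol it lay below control, at 73.7%. SIM1, a basic helix-loop-helix factor, had 3532 and 3890 in control, 1114 and 1073 with TGFB1, 4442 and 4343 with celastrol alone, and 4337 and 4458 with both. HOXA13, a homeobox gene of distal limbs, had 2417 and 2101 in control, 575 and 441 with TGFB1, 1329 and 1235 with celastrol alone, and 1417 and 1384 with both, so with celastrol it stood at 56.8% of control. In 13 of the 19 genes both celastrol libraries lay above both control libraries, and the 2 that lay below were AHRR and HOXA13. Over all members 61 of 108 lay above and 22 below, and over the 11072 genes 28.8% and 50%. The highest celastrol levels were those of ZNF608 (260% of control), HHEX (241%), SHOX2 (238%) and JADE2 (223%). The mesenchymal factor TWIST1 stood at 33.9% of control with TGFB1 and 129% with celastrol, and the DNA demethylase TET1 at 38.0% and 145%.

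Of 4 genes in innate immunity, PTX3 encodes a secreted pentraxin. It had 5010 and 7453 normalized reads in control, 669 and 1157 with TGFB1, 3198 and 4259 with celastrol alone, and 3235 and 4499 with both. PTX3 varied more between replicates than most members, with replicate 2 the higher in every group, and its celastrol libraries lay below control (59.8%). IFIT1 and IFIT2 are interferon-induced genes that restrict viral RNA translation, and lie 83274 bases apart on chromosome 10. IFIT1 had 434 and 519 in control, 131 and 102 with TGFB1, 623 and 612 with celastrol alone, and 548 and 758 with both. IFIT2 had 261 and 351 in control, 63.6 and 46.7 with TGFB1, 316 and 334 with celastrol alone, and 366 and 401 with both. IFIT2 with both lay above celastrol alone, while celastrol alone overlapped control. TRIM34 stood at 23.9% of control with TGFB1 and 92.7% with celastrol. Its exons overlap those of a readthrough gene on the same strand, so its reads may be shared.

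Among 5 adhesion and guidance genes, FLRT3, a membrane protein that binds latrophilins and UNC5 receptors, stood at 12.8% of control with TGFB1. It had 364 and 357 normalized reads in control, 48.0 and 44.2 with TGFB1, 794 and 847 with celastrol alone, and 729 and 759 with both. FLRT3 lay above control with celastrol, at 228%, and a little lower when TGFB1 was added. EPHA4, an ephrin receptor, had 2150 and 2231 in control, 934 and 703.01 with TGFB1, 4398 and 4858 with celastrol alone, and 4387 and 4441 with both. ITGB8, the integrin subunit of a complex that activates latent TGFB, stood at 29.1% of control with TGFB1 and 197% with celastrol. SEMA6D stood at 39.7% and 113%, and CDHR3 at 26.2% and 126%.

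The 9 genes tied to the cytoskeleton had the highest group median with celastrol alone, 218% of control. LURAP1L had 169 and 199 normalized reads in control, 35.3 and 60.2 with TGFB1, 1049 and 930.1 with celastrol alone, and 796 and 697 with both. Celastrol alone gave 5.39 times control, and the level with both was 75.4% of celastrol alone, the lowest such ratio among the members. CMYA5, a muscle-associated protein, had 346 and 374 in control, 127 and 106 with TGFB1, 1216 and 1453 with celastrol alone, and 1276 and 1229 with both. KIAA1217 stood at 23.0% of control with TGFB1 and 340% with celastrol, CCDC102B at 30.05% and 276%, the microtubule-associated MTUS1 at 15.7% and 218%, and CRYBG1 at 36.8% and 217%. KRTAP1-5, a hair keratin-associated gene, lay below control with celastrol, at 56.9%, and SSX2IP overlapped control at 94.3%.

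In the group for ubiquitin and membrane trafficking, with 13 members, ARRDC4, an arrestin-domain protein that lowers glucose uptake, had 4820 and 4611 normalized reads in control and 1811 and 1534 with TGFB1. It had 2768 and 2629 with celastrol and 2780 and 2783 with both, between the control and TGFB1 libraries. DENND3, an exchange factor for RAB12, had 1802 and 1576 in control, 572 and 498 with TGFB1, 825 and 836 with celastrol alone, and 856 and 871 with both. RNF144B, a ubiquitin ligase, had 169 and 153 in control, 22.6 and 17.2 with TGFB1, 240.4 and 349 with celastrol alone, and 252 and 303 with both. RAB7B, a small GTPase of late endosomes, stood at 14.4% of control with TGFB1 and 78.0% with celastrol. KBTBD6 and KBTBD7, neighbouring genes on chromosome 13 whose proteins form a CUL3 ubiquitin ligase together, parted with celastrol: KBTBD6 lay below control at 72.9% and KBTBD7 above it at 184%. SH3TC2 lay below control at 58.1%, and TBC1D8 above it at 158%. LIN7A (103%) and SYTL2 (103%) overlapped control.

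Of 5 channel and transporter genes, KCNN2, a small-conductance calcium-activated potassium channel, had 343 and 291 normalized reads in control and 41.0 and 43.0 with TGFB1. It had 314 and 249.5 with celastrol and 321 and 317 with both, the last lying above celastrol alone. TRPC6, a calcium-permeable channel, had 291 and 269 in control, 63.6 and 45.5 with TGFB1, 375 and 385 with celastrol alone, and 303 and 325 with both. SLC7A14 stood at 26.5% of control with TGFB1 and 88.0% with celastrol, KCNJ8 at 23.8% and 113%, and ANO3 at 31.2% and 103%.

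Among 8 metabolic genes, RDH10, which oxidises retinol on the way to retinoic acid, had 4181 and 3159 normalized reads in control, 1013 and 707.9 with TGFB1, 3004.5 and 2518 with celastrol alone, and 2780.3 and 2279 with both. It lay below control with celastrol, at 75.2%. PDE5A, which breaks down cyclic GMP, had 3279 and 3064.5 in control, 1208 and 1027.5 with TGFB1, 3952 and 3425 with celastrol alone, and 3498 and 3395 with both. The lipid phosphatase PLPP3 stood at 36.4% of control with TGFB1 and 138% with celastrol, the phospholipase PLD1 at 33.3% and 127%, COQ8A of coenzyme Q synthesis at 37.3% and 144%, and B3GALT5 at 37.8% and 301%. CYP1B1, a cytochrome P450, varied widely between replicates, with 259 and 495 in control, 119 and 132 with TGFB1, 366 and 665 with celastrol alone, and 313 and 545 with both. Replicate 2 of CYP1B1 was the higher in every group. Both growth-arrest genes, GAS1 and RGCC, lay above control with celastrol, at 166% and 153%.

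The remaining 12 genes had other or little-known roles. PLPPR4 (35.5% of control with TGFB1, 99.4% with celastrol), SAMD5 (37.8% and 117%), ANKRD33B (23.1% and 138%), SAMD12 (38.2% and 141%) and the nucleotidyltransferase TENT5C (33.7% and 137%) had the highest control levels. AC104452.1 had 120.5 and 110.8 normalized reads in control, 14.98 and 48.2 with TGFB1, 16.3 and 14.2 with celastrol alone, and 17.7 and 19.5 with both. It was the member with the lowest celastrol level (13.2% of control) and the sole member whose libraries with both did not lie above those with TGFB1 alone. Its exons overlap those of 2 protein-coding genes on the same strand, so its level depends on how the deposited pipeline shared reads.

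The question of whether TGFB1 lowered these genes when celastrol was present could be tested, since neither group entered the rule. The fit to all 8 libraries still took part of its spread from the control and TGFB1 libraries that chose the members. A fit to the 4 celastrol libraries alone did not. No member was called lower or higher with TGFB1 plus celastrol against celastrol alone (limma on all 8 libraries, Benjamini-Hochberg adjusted p under 0.05 over 22866 genes), against 0.00875% of all genes tested (0.00437% lower and 0.00437% higher). At an unadjusted p under 0.05 there was 1 member, against 3.8% of all genes. That gene was FST (log2 change -0.13, limma adjusted p = 1). The smallest adjusted p of any member from limma was 1, and it was 0.975 in the fit to the 4 celastrol libraries alone. In that fit 5 members had an unadjusted p under 0.05, all of them lower. Of all 22866 genes 1061 did so, 442 of them lower and 619 higher. Levels with TGFB1 plus celastrol ran from 75.4% to 122% of celastrol alone, with a median of 96.8%, beside 99.4% over the 11072 genes. They lay within 80% to 125% for 105 of 108 genes, and no gene was at or below 40%. The 3 at or below 80% were LURAP1L, COQ8A and HHEX, a homeobox factor, whose log2 changes of -0.41, -0.36 and -0.32 all had an adjusted p of 1 from limma.

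A p above the threshold does not show that TGFB1 was without effect here, so intervals are given. For all 108 genes the 95% interval of the log2 change lay above -1.32, the log2 of the 40% that defined the members. The same held in the fit to the 4 celastrol libraries. For 107 genes the interval also lay above a fall by 1 log2 unit, the exception being CYP1B1 (log2 change -0.26, interval -1.12 to 0.61). Most other genes met these limits too: of all 22866 tested, 20494 had an interval above the first and 18419 above the second. CYP1B1 was higher in replicate 2 of every group, and this fit did not match replicates. The median distance from the estimate to the end of the interval was 0.35, and 0.26 in the fit to the 4 celastrol libraries. For KIT the log2 change was -0.12, with an interval of 75.0% to 113% of celastrol alone, and it was 0.02 without celastrol replicate 2. For ADAMTS1 it was 0.07 (93.2% to 119%), and -0.02 without replicate 2 of TGFB1 plus celastrol. For BMP4 it was -0.20 (75.5% to 100.1%), and for SMAD6 0.16 (97.0% to 128%). Both libraries with TGFB1 plus celastrol lay below both with celastrol alone in 20 members, against 18.9% of the 11072 genes, and above them in 11, against 14.4%. The share of members below was therefore near the background.

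**Figure D3:**
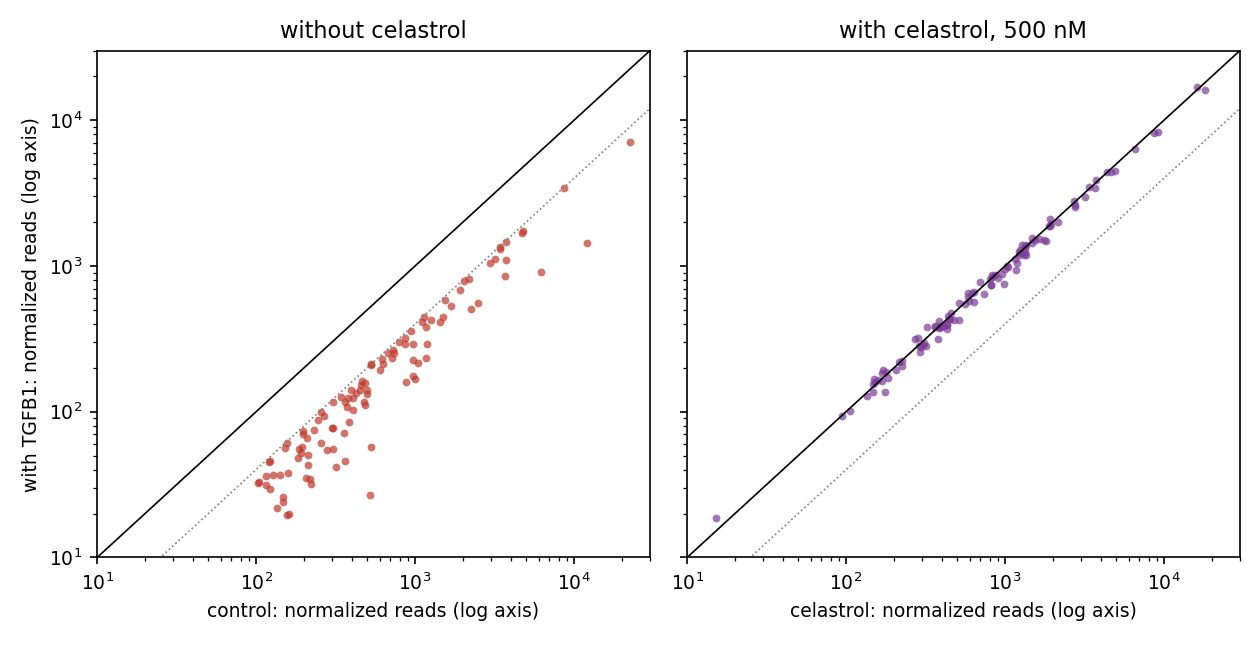
Mean normalized reads of the 108 genes with TGFB1 (vertical) against the matching group without it (horizontal), both on log axes, without celastrol on the left and with celastrol at 500 nM on the right. The solid line marks equal levels and the dotted line 40%. On the left all points lie below the dotted line by the rule, and on the right they lie along the solid line.

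**Figure D4:**
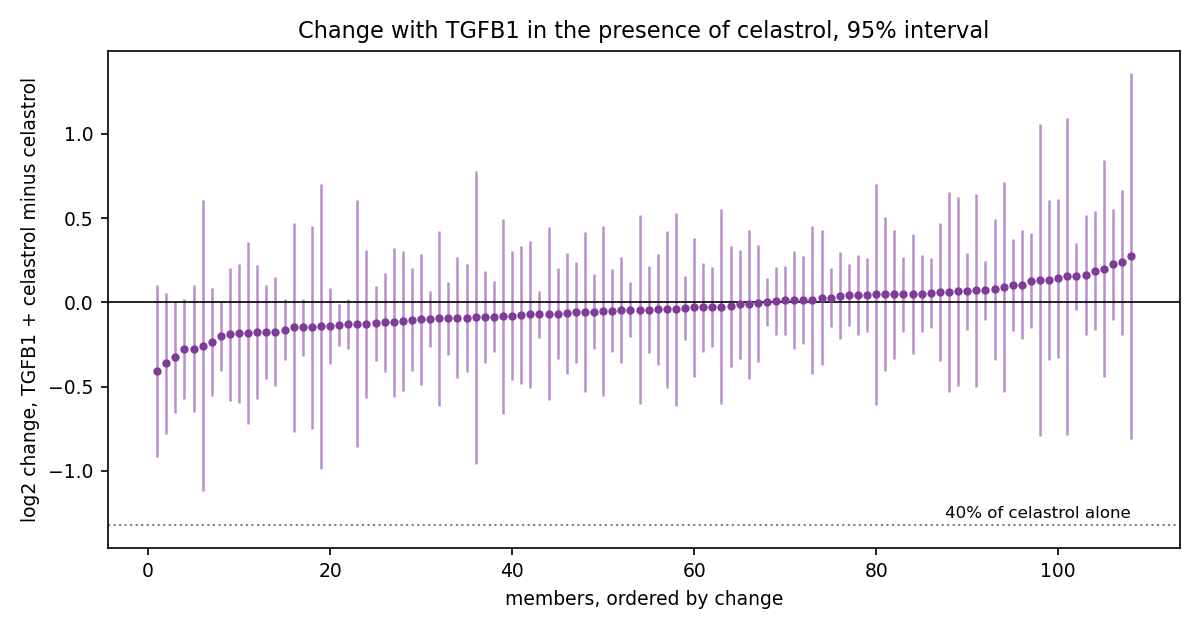
Log2 change with TGFB1 plus celastrol against celastrol alone for each of the 108 genes, ordered by size, with the 95% interval from limma. The dotted line is a fall to 40%, and every interval lies above it.

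The same contrast was set beside the genes that TGFB1 raised. These were 218 protein-coding genes with a TGFB1 mean of at least 100 and at least 2.5 times control. With celastrol present, their levels with TGFB1 had a median of 110% of celastrol alone (80.2% to 264%), and 9 of 218 were at least 1.5 times it. At an unadjusted p under 0.05 from limma there were 45 such genes, 44 of them higher. This was so for 1 of 108 members and for 3.8% of all genes tested. In the fit to the 4 celastrol libraries there were 58 raised genes, 57 of them higher, and 5 members, all lower. Precision was unequal: from estimate to interval end, the median distance in the main fit was 0.28 for raised genes and 0.35 for members. FOSB, an AP-1 subunit, was the sole raised gene called, with 3723 and 3381 normalized reads with celastrol and 6838 and 7776 with both (log2 change 1.04, limma adjusted p = 0.04993). The other call in the whole table was FOXD4L6, which had 12.9 and 18.4 normalized reads with celastrol and less than 1 in every other library. These genes were named after their values were seen. Whether raised and lowered genes differed in how much of the TGFB1 response was seen with celastrol was not tested.

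With celastrol alone many members stood away from their control level. Both celastrol libraries lay above both control libraries in 61 members, against 28.8% of the 11072 genes, below them in 22, against 50%, and overlapped in 25. Celastrol levels were at least 100% of control in 76 members, against 37.9%, at least 200% in 19, against 5.39%, and at most 50% in 3 (ATOH8, DENND3 and AC104452.1), against 2.6%. The control libraries also chose the members, so these counts are a description. By role, 7 of 9 cytoskeletal genes, 13 of 19 transcription factors and 3 of 4 matrix genes lay above control, while trafficking genes were split into 4 above and 4 below among 13. Centring each library on its median moved the median log2 change of all genes with celastrol from 0.083 to -0.085, and then 51 members lay above and 29 below, beside 19.5% and 65.8% of the 11072 genes. Scaling to a common total moved the median log2 change of all genes with TGFB1 from 0 to -0.21. Celastrol levels were at least 100% of control in 76 members as deposited, in 71 at a common total and in 65 after centring on the median.

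**Figure D5:**
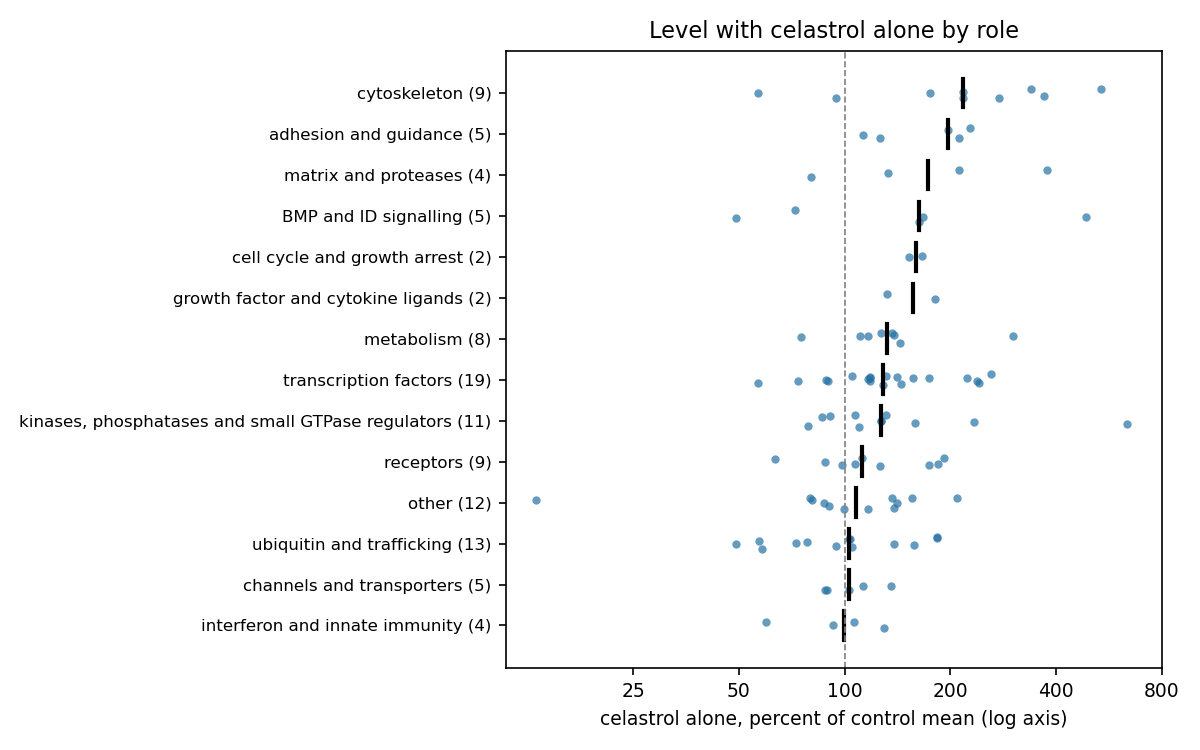
Level with celastrol alone as percent of the control mean, on a log axis, for the members of each role group (1 point per gene, thick bar at the group's median, number of genes in brackets). Cytoskeletal genes have the highest median, 218%, and innate immunity genes the lowest, 99.4%.

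With TGFB1 plus celastrol, both libraries lay above control in 59 members, against 28.9% of the 11072 genes, and below control in 23, against 50.9%. They lay above both TGFB1 libraries in 107 of 108 members, and below them in none, beside 29.1% and 51.9% of the 11072 genes, which follows in part from the choice of genes that were low in those TGFB1 libraries. The highest levels with both were those of SIPA1L2 (560% of control), BMP4 (423%), LURAP1L (406%), CMYA5 (348%) and ADAMTS9 (320%). The lowest were those of AC104452.1 (16.1%), ATOH8 (44.3%), DENND3 (51.1%), KRTAP1-5 (52.3%) and ACKR4 (58.8%). Both orders were close to those with celastrol alone, where the highest were SIPA1L2, LURAP1L, BMP4, ADAMTS9 and CMYA5, and the lowest AC104452.1, ATOH8, DENND3, HOXA13 and KRTAP1-5.

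Genes of the same pathways were followed through lists, with TGFB1 against control tested by limma over all genes, where 10.6% of genes were called lower and 12.8% higher. These lists were drawn up knowing which members the rule finds, and the members in them were lower by the rule. In the BMP and ID list of 24 genes, 8 were lower, 3 of them members, and 7 were higher, with a median log2 change of -0.06. ID1 and ID3, which encode inhibitors of basic helix-loop-helix factors and are BMP targets, fell to 1029 ± 151 from 2321 ± 235 (log2 change -1.18, limma adjusted p = 3.48e-04) and to 966 ± 7.499 from 1627 ± 208 (-0.74, limma adjusted p = 4.20e-04; SD, n = 2 throughout). ID4 rose (0.76, limma adjusted p = 0.00706), as did the receptor BMPR2 (1.26, limma adjusted p = 9.67e-06). In the KIT pathway list of 19 genes, 4 were lower, 2 of them members, and 7 were higher. The ligand of KIT, KITLG, fell (-1.02, limma adjusted p = 1.42e-04), and the adaptor SH2B3, which dampens KIT signalling, rose (1.09, limma adjusted p = 4.52e-05).

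Among 15 ADAMTS genes 4 were lower, 3 of them members, and 4 were higher, including ADAMTS2, which trims procollagen (0.91, limma adjusted p = 1.19e-04). In the list of FOXO targets and growth arrest, 8 of 19 measured genes were lower, 2 of them members, and 3 were higher. CDKN1B and CCNG2, which slow the cell cycle, fell (-1.12, limma adjusted p = 1.01e-05, and -1.26, limma adjusted p = 6.47e-05), while the ubiquitin ligase gene FBXO32 rose (3.30, limma adjusted p = 1.47e-07). In the interferon list 6 of 16 measured genes were lower and none higher. Beside the members IFIT1 and IFIT2 these were IFIT3, IFIH1, GBP1 and GBP2, with log2 changes of -1.24 (IFIT3) to -0.26 (GBP1). In the guidance and adhesion list 7 of 19 measured genes were lower, of which FLRT3 is a member, and 4 higher. FLRT2 (-1.10, limma adjusted p = 3.02e-04) and SEMA3D (-1.08, limma adjusted p = 1.11e-04) fell. With TGFB1 plus celastrol against celastrol alone, limma called no gene in any of these lists, and at an unadjusted p under 0.05 there was 1 gene each in the ADAMTS, interferon and guidance lists and none in the others.

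The promoter table matched 83 of the 108 members, with 135 windows of 250 bases before to 50 after a RefSeq start site in GRCh38.p14. Motifs were searched on both strands and their shares set beside all 35116 windows and the 13380 windows of the protein-coding genes with a control mean of at least 100. The SMAD box CAGAC stood in 48.1% of member windows, 43.3% of those 13380 and 45.3% of all. The palindrome GTCTAGAC, which holds the shorter core AGAC on each strand and does not overlap CAGAC, stood in 1 member window, that of SMAD6 shown above (0.741%, beside 0.12% and 0.202%). GGCGCC, a BMP-type SMAD element, stood in 15.6% of member windows, 29.6% of the 13380 and 19.2% of all, and the E-box CAGGTG, bound by SNAI and ZEB repressors, in 11.9%, 17.1% and 20.6%. The AP-1 site TGANTCA stood in 7.41%, 4.96% and 7.71%. The interferon-stimulated element stood in 9 member windows (6.67%, beside 2.83% and 3.57%), among them those of IFIT1, TRIM34, EPHA4 and JADE2. CACCC, a box of Kruppel-like factors, stood in 66.7%, 62.9% and 59.9%, the FOXO site GTAAACA in 1.48%, 2.52% and 3.42%, the E2F site TTTCGCGC in 0.741%, 0.994% and 0.515%, and the heat shock element in none, 0.351% and 0.49%. Member windows had a median GC content of 61.3%, beside 65% for the 13380 windows and 58.7% for all, and base composition alone alters such shares. No test was made.

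Members were scattered over the genome, with 7 pairs less than 1000000 bases apart. Besides IFIT1 with IFIT2 and ADAMTS1 with ADAMTS5 (72512 bases apart), these were KBTBD6 with KBTBD7, KBTBD7 with RGCC, PTPRQ with LIN7A, PTX3 with SHOX2 and GAS1 with DAPK1. The genes spanned a median of 76863 bases, against 35324 bases for the 11072 genes. In the GENCODE 29 annotation the exons of 45 members overlap exons of another gene, which for 30 is a gene of the table. PTX3, MTUS1, SOCS2, IFIT2, HOXA13, CEMIP and AHRR are among these 30. The sources do not state whether the counting used strand, so reads of overlapping genes on opposite strands cannot be told apart. For some members, such as AHRR with PDCD6 and HOXC6 with HOXC4, the overlapping gene is on the same strand. There use of strand would not separate the reads.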

How the data were processed

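The deposited table holds a normalized signal per gene and library. The submitters' processing notes name build hg38, STAR 2.7.3a, DESeq2 and Partek 10.0.22, per the labels with no roles, annotation, counting rule or use of strand. The deposited signal was taken to be estimated reads over a library's size factor. The median ratio to the geometric mean was 1.0077 in every library. Of values under 60 normalized reads, 76.1% to 79.0% corresponded to whole estimated reads within 0.02. As many values were fractional, no count model was used. The scale was log2(value + 1), which draws changes of low genes toward 0. The 22866 genes that reached 10 normalized reads in 2 libraries or more were fitted with limma 3.58.1 in R 4.3.3, with 1 mean per group, a variance trend, 4 residual degrees of freedom, two-sided tests and Benjamini-Hochberg adjustment. The fit was tested on simulated data. The results of 1 gene list are not reported here.

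The members, lists and alternatives were chosen with earlier results of these data known, and roles were assigned after the members were seen. Named genes were KIT, ARHGAP28, the 10 members with the lowest TGFB1 ratio and the 10 with the highest control level, those nearest each limit, the 5 highest and 5 lowest with celastrol with or without TGFB1, up to 6 per role by control level, and list genes; others named are described as such or given by level alone. Intervals are 95% and, with the floor of 3 reads, rest on these libraries. Alternatives changed the pseudocount, filter, scaling, variance trend, the rule's limits, the libraries fitted and the replicate block.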

Additional observations from a re-analysis of the deposited data

Results flagged for a closer look

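In 11 members both TGFB1 libraries lay below both control libraries, while both libraries with TGFB1 plus celastrol lay above both with celastrol alone. The log2 change with celastrol present was 0.27 for AC104452.1, 0.24 for IFIT2, 0.23 for LPAR6, 0.19 for KCNN2, 0.16 for SMAD6, 0.13 for RAB27B, 0.13 for HOXA13, 0.07 for PLD1, 0.06 for DENND3, 0.05 for SLC7A14 and 0.04 for ARRDC4. The lower levels with TGFB1 alone were fixed by the choice of members, and the difference between the effects with and without celastrol was not tested. None of the 11 changes passed the threshold in limma (adjusted p = 1 for each). Both libraries with TGFB1 plus celastrol lay above celastrol alone in 14.4% of the 11072 genes with a control mean of at least 100.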

How the results depend on the processing

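With 2 libraries per group, precision is limited by their number, and the 95% intervals of the change with celastrol present reached 0.35 log2 units to either side at the median member. No member was called under any alternative, among them those without 1 library. The number of genes called in the whole table, 2, was 1 with a pseudocount of 5, 0 with no filter on low values, 0 after centring on the median, 1 with no variance trend, 1 with the 4 celastrol libraries alone, and 0 without any 1 library. The number of members, 108, was 50 at a ratio of 0.3, 238 at 0.5, 203 when libraries were scaled to a common total and 70 when both TGFB1 libraries had to be at most 0.4 times both control libraries. Without 1 library it was 114 to 131. After centring on the median, the TGFB1 levels of the 108 reached 43.3% of control, so some no longer met the ratio. Their median was then 34%, beside 31.1% as deposited and 26.7% at a common total. The median celastrol level, 127.1% of control, was 120.2% at a common total, 113.0% after centring on the median and 123.6% to 128.6% without 1 library. With TGFB1 plus celastrol, the median of 120.9% was 115.3%, 107.7% and 117.1% to 123.3%. As percent of celastrol alone the median of 96.8% was 95.6% to 100.6% without 1 library, reaching 100.6% without celastrol replicate 2 and 99.9% without replicate 1 of TGFB1 plus celastrol. The log2 change of KIT, -0.12, was 0.02 without celastrol replicate 2, that of ADAMTS1, 0.07, was -0.02 without replicate 2 of TGFB1 plus celastrol, and that of CYP1B1, -0.26, was -0.69 to 0.17 without 1 library. The cause of these changes was not tested.

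No label states whether same-numbered libraries of different groups belong together. Their replicate differences correlated at r = 0.0499 to 0.0815 across 22866 genes, which does not show that they were unmatched. Some members, such as PTX3, PLPPR4 and CYP1B1, differed between replicates in the same direction in all 4 groups. Others, such as SOCS2 and IFIT1, did not. The main fit did not match replicates. With the replicate number as a block, 1 gene of the whole table and no member was called.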
